A study of Mus musculus with 2 samples.

Results

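Peaks of open chromatin at the 3′ ends of protein-coding genes were examined in mouse regulatory T cells profiled by ATAC-seq, an assay that marks accessible DNA by the insertion of the Tn5 transposase. Of the 34610 peaks in the thresholded list of the pool, 590 (1.70%, exact 95% Clopper-Pearson interval 1.57 to 1.85%) had their summit within 1 kb of the 3′ end of a protein-coding gene and more than 1 kb from every annotated transcription start site (TSS). They were chosen by position in the GENCODE M21 annotation alone, and each peak was placed at its summit of highest signal. The gene of a member is the coding gene with the nearest 3′ end, a label of position only. The nearest TSS belonged to that gene in 285 of the 590 members (48.3%, 44.2 to 52.4%).

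The cells were primary regulatory T cells that the labels trace to haematopoietic cells of bone marrow, from a 4-month-old adult male of the Foxp3CreERT2 x Rosa26YFP strain, which joins an inducible Cre at Foxp3 to a fluorescent reporter. Both libraries are technical replicates of 1 biological replicate, and their peaks were called together. There is no other group, no value per library and no spread between animals, so each value below describes 1 pool. Intervals cover counting error only, and the read depth is unknown. A promoter peak was found at 23 of 25 genes of a T cell identity list and at 19 of 22 genes of a regulatory T cell signature list, against 52.1% of all eligible coding genes. In lists of other cells it was found at 4 of 12 B cell, 4 of 14 myeloid, 6 of 12 erythroid and megakaryocyte, 5 of 12 neuron and 0 of 11 hepatocyte genes.

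The 3′ end of a gene is where the transcript is cleaved and polyadenylated and where RNA polymerase II slows and is released. Chromatin that opens there can hold enhancers of the gene or of its neighbours, unannotated or antisense start sites, or binding sites of CTCF, the zinc-finger protein that halts cohesin at loop anchors. In T cells, RUNX, ETS, AP-1 and IRF factors are known for binding open distal sites.

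The sequences that recur at these peaks are shown first, because the CTCF core was in a greater share of them than any other motif searched except an E-box of only 6 bases. The core was searched as CCA, AG and GGC with 2 free bases between neighbours, on both strands within 200 bp windows centred on the summits. The first 6 members by signal that hold it are given below as 30 bases of mm10, read 5′ to 3′ on the strand of the core, with the core in capitals.
Csrp1, chr1:135753081-135753110, minus strand: cctgcatggCCAGCAGAGGGCagcctgtct
Cript, chr17:87036675-87036704, plus strand: taggcctttCCACCAGGGGGCaacgatgct
Acvrl1, chr15:101145555-101145584, minus strand: gcgcattggCCAGCAGAGGGCgacgtggct
Skap2, chr6:51858059-51858088, minus strand: cctaagtggCCAGCAGATGGCagcagcttg
Elmod3, chr6:72566212-72566241, minus strand: tatcttcagCCATCAGGGGGCagcacaaca
Scgb1a1, chr19:9082627-9082656, minus strand: gcgtcgtggCCACCAGGGGGCagtgtagtc

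Members at genes of the T cell lists, described further on, number 22. RUNX letters were in the 200 bp windows of 4 of them (18.2%, against 8.14% of all members). The CTCF core was in 3 (13.6% against 19.8%). The E-boxes CACCTG and CAGCTG were in 4 and 3 (18.2% against 19.8%, and 13.6% against 14.4%). None of the motifs searched was in 6 of the 22, against 182 of all 590 members. These counts are small, and the differences were not tested. The stretches below were chosen because they hold motif letters. They are the 101 bases of mm10 centred on the summit of 8 members past the ends of T cell genes, on the strand of the gene. Capitals mark RUNX (TGTGGTT or its reverse complement) at Cd2, Cd6, Klrg1 and Ctla4, NRF1 (GCGC, 1 free base and TGCGC) at Rela, CTCF at Lag3 and Bach2, and the E-boxes CAGCTG at Cd3e and CACCTG at Ctla4.
Rela, chr19:5648865-5648965, plus strand: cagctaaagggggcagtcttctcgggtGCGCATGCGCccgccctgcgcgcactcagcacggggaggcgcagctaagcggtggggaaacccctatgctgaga
Cd2, chr3:101274917-101275017, minus strand: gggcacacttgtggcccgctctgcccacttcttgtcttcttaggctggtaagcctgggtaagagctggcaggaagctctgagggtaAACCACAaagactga
Cd3e, chr9:44998261-44998361, minus strand: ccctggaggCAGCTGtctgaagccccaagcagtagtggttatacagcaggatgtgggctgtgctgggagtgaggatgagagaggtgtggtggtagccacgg
Cd6, chr19:10788418-10788518, minus strand: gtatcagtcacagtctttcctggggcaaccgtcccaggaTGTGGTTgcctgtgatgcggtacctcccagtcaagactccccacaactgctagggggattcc
Lag3, chr6:124903683-124903783, minus strand: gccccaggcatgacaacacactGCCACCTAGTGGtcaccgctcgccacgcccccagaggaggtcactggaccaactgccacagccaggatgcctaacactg
Klrg1, chr6:122270303-122270403, minus strand: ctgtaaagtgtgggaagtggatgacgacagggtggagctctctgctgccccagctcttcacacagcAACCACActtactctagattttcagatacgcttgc
Bach2, chr4:32586743-32586843, plus strand: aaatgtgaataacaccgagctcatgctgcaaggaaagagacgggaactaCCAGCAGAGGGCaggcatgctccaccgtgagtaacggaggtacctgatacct
Ctla4, chr1:60916611-60916711, plus strand: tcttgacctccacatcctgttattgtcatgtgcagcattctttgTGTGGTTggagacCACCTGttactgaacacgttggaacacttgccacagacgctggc

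Per base of sequence, gene ends held more peaks than the rest of the genome away from start sites. The bases that meet the position rule make up 36.2 Mb, or 1.37% of the genome outside gaps, and held 16.3 peaks per Mb (exact 95% Poisson interval 14.999 to 17.7). The other sequence more than 1 kb from every TSS held 8.29 peaks per Mb (8.18 to 8.41), which makes a ratio of 1.96. That sequence was not matched for distance to genes. Members lay a median of 4976.5 bp from a TSS, against 4177 bp for other exonic, 8360 bp for intronic and 12039 bp for intergenic peaks. Windows of 500 bp, 1 kb and 2 kb around the ends held 299, 590 and 1123 such peaks. Whether the ratio is particular to the 3′ end was not tested. Among all 20919 peaks more than 1 kb from a TSS, the members were 2.82% (2.60 to 3.05%).

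Among bins of 100 bp, the one just before the annotated end held the fewest summits. It held 14, or 7.46 per Mb (4.08 to 12.5), near the level of distal sequence at large, although its interval overlaps that of the bin before it (15.8 per Mb, 10.5 to 22.6). The bins from 200 to 300 bp and from 700 to 800 bp past the end were the densest, with 21.3 (15.2 to 29.0) and 21.6 per Mb (15.3 to 29.5). The intervals of single bins are wide, and those 2 bins do not differ beyond them. Past the end lay 326 members (55.3%, 51.1 to 59.3%), or 17.7 per Mb (15.8 to 19.7), and before it 264, or 14.9 per Mb (13.1 to 16.8). The eligible sequence itself is 18.4 Mb past the end and 17.8 Mb before it. The intervals for the densities on the sides overlap, which does not measure the difference between them, and that difference was not tested.

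**Figure D1:**
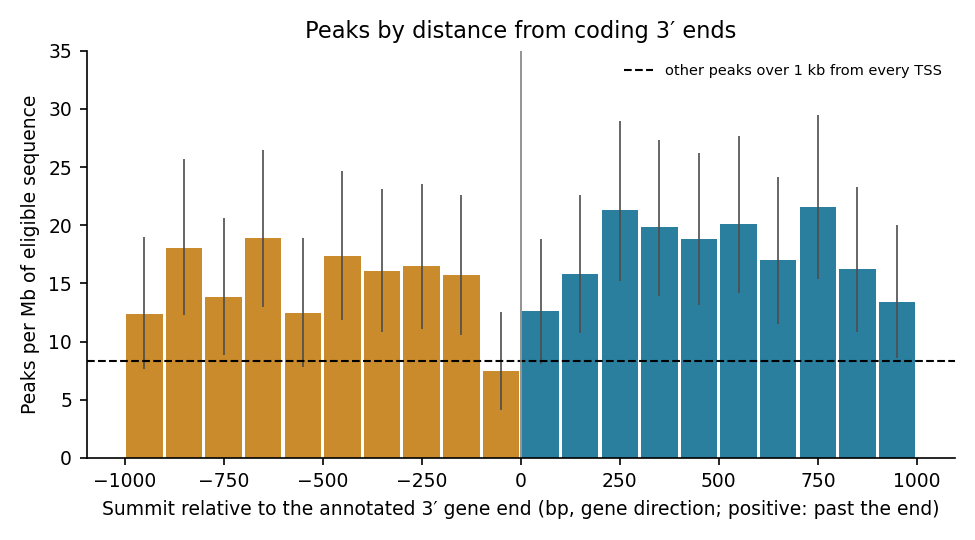
Peaks per Mb of eligible sequence (y axis) in bins of 100 bp by distance of the summit from the annotated 3′ end (x axis, bp in gene direction), with exact 95% Poisson intervals. The bar for the 100 bp before the end, at 7.46 per Mb, is the lowest, and the dashed line marks the 8.29 per Mb of other sequence more than 1 kb from every TSS.

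Summits were most often outside genes or in 3′ UTRs. The summit fell outside any gene in 264 members, in a 3′ UTR in 178, in an intron in 80, in coding sequence in 53 and in another exon in 15. Counted by the gene whose end is nearest, 222 summits (37.6%, 33.7 to 41.7%) were in an exon of that gene and 42 (7.12%, 5.18 to 9.50%) in one of its introns. Per Mb of the same sequence class near gene ends, coding sequence held 24.7 summits (18.5 to 32.2) and 3′ UTRs 13.5 (11.6 to 15.7), and these intervals do not overlap. Other exons, with 15 summits, held 30.0 (16.8 to 49.5), sequence outside genes 17.3 (15.2 to 19.5) and introns 15.6 (12.4 to 19.4).

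Members in coding sequence were richer in GC and CpG than those in 3′ UTRs or outside genes. Their median GC content over the 200 bp window was 62.5% (interquartile range 58 to 69%) and their median CpG ratio, the observed over the expected count of CG, was 0.74. In 3′ UTR members these medians were 49.5% and 0.29, and outside genes 51.5% and 0.26. Promoter peaks of the same list had medians of 62.0% and 0.76. The GC content and CpG ratio of each sequence class without peaks were not measured. These differences can therefore not be told apart from those between the classes themselves. The NRF1 letters, a CG-rich motif of a factor known for binding promoters, were in 6 of the 53 coding-sequence members (11.3%, 4.27 to 23.0%) and in 0 of the 178 in 3′ UTRs, which allows a share of up to 2.05%. Coding-sequence members were also wider, with a median of 750 bp against 515 bp in 3′ UTRs, and lay nearer to a TSS, with a median of 3180 bp against 5969.5 bp.

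By signal, the authors' enrichment value per peak, the members resembled other peaks away from start sites. Their median was 11.9 (interquartile range 8.40 to 16.3, full range 2.56 to 31.6), against 11.7 in the 11209 other intronic peaks, 11.6 in the 905 other exonic peaks, 12.7 in the 8215 other intergenic peaks and 15.4 in the 13691 promoter peaks. Their median −log10 p of 73.6 and median width of 521 bp were under those of the 3 other distal groups, which lay between 83.4 and 85.7 and between 546 and 570 bp. The interquartile ranges overlap throughout. A single summit was listed in 332 members (56.3%). The summit was in repeat-masked sequence in 7.29% of members (5.32 to 9.69%), against 6.74% of other exonic, 10.2% of intronic, 10.1% of intergenic and 5.08% of promoter peaks. In the longer pseudoreplicated list of the same pool, 589 of the 590 members were overlapped by a peak. Since both lists come from the same reads, this overlap is no independent measure of reproducibility.

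**Figure D2:**
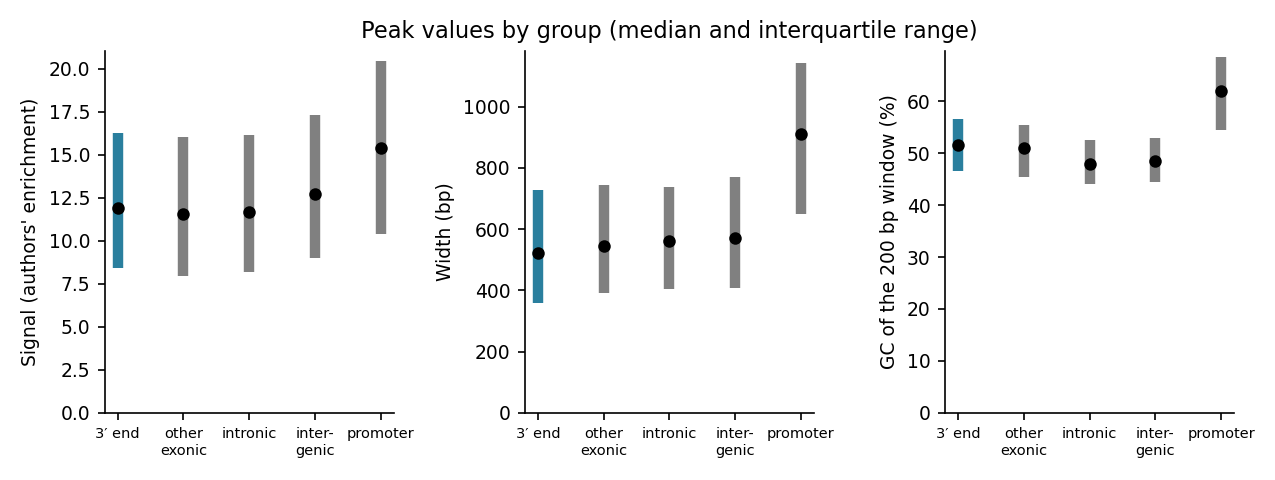
Median (point) and interquartile range (bar) of signal (authors' enrichment), peak width (bp) and GC content (%) for the 590 peaks at 3′ ends and for the other exonic, intronic, intergenic and promoter peaks. The 3′ end peaks sit with the other distal groups in signal (median 11.9) and width (521 bp), and promoter peaks sit above all of them.

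The 10 members of highest signal belonged to genes of many roles. A peak of 31.6 lay 916 bp past the end of Csrp1, which encodes a LIM-domain protein of the actin cytoskeleton. Next came 31.2 at Sf3b5, a subunit of the spliceosome's SF3b complex, 28.2 at Vangl2, a membrane protein of planar cell polarity, 28.2 at Hpn, the serine protease hepsin, and 27.8 at Nrap, an actin-binding protein of striated muscle. The other 5 were 4930522H14Rik (27.8), the mitochondrial leucyl-tRNA synthetase gene Lars2 (27.4), the calcium sensor gene Doc2b (27.2), Cdc23 of the anaphase-promoting complex (27.1) and Syce1l (26.0). The Sf3b5 peak at chr10:13007931-13008922, with the greatest −log10 p of any member (924), lies 78 bp from a transcript start in RefSeq, although its nearest GENCODE start is 3029 bp away. In all, 22 members (3.73%) lay within 1 kb of a RefSeq transcript start. The peak at Lars2, at chr9:123461727-123462248 in the 3′ UTR, had a −log10 p of 547.

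Within each class of sequence, the 3 members of highest signal were as follows. Outside genes they were Csrp1, Vangl2 and Hpn. In 3′ UTRs, Lars2 and Doc2b were followed by Dgkh, a diacylglycerol kinase, with 25.4. In coding sequence, Nrap and Cdc23 were followed by the hormone precursor gene Pomc with 25.6. Among introns the leaders were Map7 (25.1), which encodes a microtubule-binding protein, Nsmce4a (23.3), of the SMC5/6 complex, and Tex9 (23.2). Among other exons, Sf3b5 was followed by Hsd17b14 (22.7) and by the signalling adaptor gene Traf4 (21.8). The Map7 and Tex9 summits lie past the ends of those genes, in introns of overlapping annotation.

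Genes with a peak at the 3′ end often had one at the promoter too. The 590 members fell at 579 genes, and 415 of these (71.7%, 67.8 to 75.3%) had a peak within 1 kb of a TSS of their own, against 52.1% of the 21420 coding genes whose end sequence meets the rule. The share was 70.8% against 52.1% when members themselves were not counted as promoter peaks. At the 415 genes, the member's signal was above the promoter's in 135 (32.5%, 28.0 to 37.3%). A member whose interval reached within 1 kb of its gene's TSS counted as a promoter peak too. Its signal could then not be above the promoter's. Of the 579 genes, 410 had a promoter peak that was not a member. Other features of the gene end were close to the background. A poly(A) signal lay in the last 50 bp of 72.9% of the 579 genes and of 72.1% of all eligible genes. Another coding gene ended tail to tail nearby in 7.60% against 8.44%.

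The promoter share was also taken across the range of signal. The members were ordered by signal and split into 4 sets of near equal number. In the lowest set (2.56 to 8.40), 76.4% (68.7 to 82.9%) of members were at genes with a promoter peak. The next sets had 70.7% and 71.4%, and the highest (16.3 to 31.6) had 66.9% (58.7 to 74.4%), and these intervals overlap. Of the 10 members of highest signal, Sf3b5, Nrap, 4930522H14Rik, Doc2b and Syce1l had no promoter peak at their gene by GENCODE starts. The Sf3b5 peak itself lies 78 bp from a transcript start in RefSeq, so it may not lack an open promoter. The distance to the nearest other summit also differed, with a median of 2858.5 bp in the lowest set and 10844.5 bp in the highest. Across the 590 members, signal and that distance had a Spearman correlation of 0.49, given as a description of peaks that share 1 pool. The reference of the authors' enrichment value is not stated, and its part in these orders was not tested. When the 4 sets were made by −log10 p in place of signal, the lowest and the highest had the same promoter share, 71.6%.

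Most genes had a single member. Of the 579 genes, 569 had 1 member, 9 had 2 and Man1a2, which encodes a Golgi mannosidase that trims N-glycans, had 3. The Man1a2 peaks lay 429 bp before the end in the 3′ UTR, with a signal of 10.1, and 70 and 471 bp past it, with 5.17 and 4.54. Their summits are 401 to 499 bp from the nearest other summit, so they form a run of separate short peaks across the end. Genes with 2 members include Il6st and Nfkbia, described below.

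The CTCF core was in 117 members (19.8%, 16.7 to 23.3%). It was in 15.9% (15.1 to 16.7%) of other intergenic peaks, 13.0% of other exonic peaks, 11.0% (10.4 to 11.6%) of other intronic peaks, 4.89% of promoter peaks and 9.95% of all peaks. Windows 1 kb to either side of the members' summits held it in 2.29%, so the core was 8.67 times as frequent at the summit. The same ratio was 9.17 in intergenic, 6.61 in intronic and 5.62 in other exonic peaks, so it is not particular to the members. The interval of the members' share lies above that of the intronic group and meets that of the intergenic group at its lower end. The share was 20.6% past the end and 18.9% before it, 21.3% in 3′ UTRs and 20.5% outside genes. The core's centre lay a median of 15 bp from the summit.

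The core lay on both strands relative to the gene. It was on the gene's strand in 62 members, on the opposite strand in 50 and on both in 5, so that 55.4% (45.7 to 64.8%) of the 112 with 1 orientation matched the gene. Members with the core were narrower (median 417 bp against 575 bp) and had a median signal of 12.1 against 11.8. Their median −log10 p was lower, at 67.0 against 78.9. Their genes had a promoter peak in 68.4% against 72.1%, with overlapping intervals. In the 4 sets of members by −log10 p, from lowest to highest, the core was in 24.3%, 21.8%, 21.1% and 12.2%. In the 4 sets by signal it was in 18.2%, 20.4%, 23.1% and 17.6%. The member of highest signal with the core was Csrp1. Cript, which encodes a protein that binds PDZ domains, had 23.98, the TGF-β family receptor gene Acvrl1 23.1, the adaptor gene Skap2 22.8 and Elmod3 22.6.

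Letters of 3 factor families active in T cells were less frequent in the members than in intronic and intergenic peaks, though for 2 of the 3 this did not set the members apart from other exonic peaks. RUNX (TGTGGTT) was in 8.14% (6.06 to 10.6%), against 12.6% of intronic peaks, 12.2% of intergenic peaks and 9.07% of all peaks. AP-1 (TGACTCA, which is TGAGTCA on the opposite strand) was in 7.12% (5.18 to 9.50%), against 10.7%, 11.0% and 7.74%. TCF/LEF (CTTTGAA) was in 2.37% (1.303 to 3.95%), against 5.75%, 6.23% and 4.52%. In all 3 cases the members' interval lies below those of the intronic and intergenic groups. Among other exonic peaks, RUNX was in 10.3% (8.37 to 12.4%) and AP-1 in 6.63% (5.10 to 8.45%), with intervals that overlap those of the members, and TCF/LEF in 5.41% (4.03 to 7.10%), with one that does not. RUNX was at 1.78 times and AP-1 at 1.71 times the share of windows 1 kb away, but TCF/LEF was at 0.70 times.

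Other motifs varied in how far they differed from the distal groups. ETS (CCGGAAG) was in 4.58% of members and in 6.19% of other exonic, 3.24% of intronic, 4.21% of intergenic, 15.8% of promoter and 8.55% of all peaks. IRF (GAAA, 2 free bases and GAAA) was in 5.08%, against 6.30%, 6.95%, 6.17% and 5.14% of other exonic, intronic, intergenic and all peaks. STAT (TTCNNNGAA, N being any base) was in 4.75% (3.18 to 6.79%), against 6.52%, 6.86%, 7.52% and 6.08% of those groups. The members' interval for STAT lies below the intergenic one (6.96 to 8.11%) and overlaps the intronic one (6.40 to 7.34%). The E-box CACCTG was in 19.8% of members but also in 18.5% of their windows 1 kb away, and CAGCTG was in 14.4% against 10.3%. NRF1 was in 1.69% (0.82 to 3.09%), against 1.33% (0.69 to 2.30%) of other exonic, 0.26% (0.17 to 0.37%) of intronic, 0.47% (0.34 to 0.65%) of intergenic and 3.00% of all peaks. The members' interval for NRF1 lies above those of the intronic and intergenic groups and overlaps that of other exonic peaks. Of all members, 182 (30.8%) held none of the 19 motifs searched. A match is a run of letters and not a measured binding site.

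**Figure D3:**
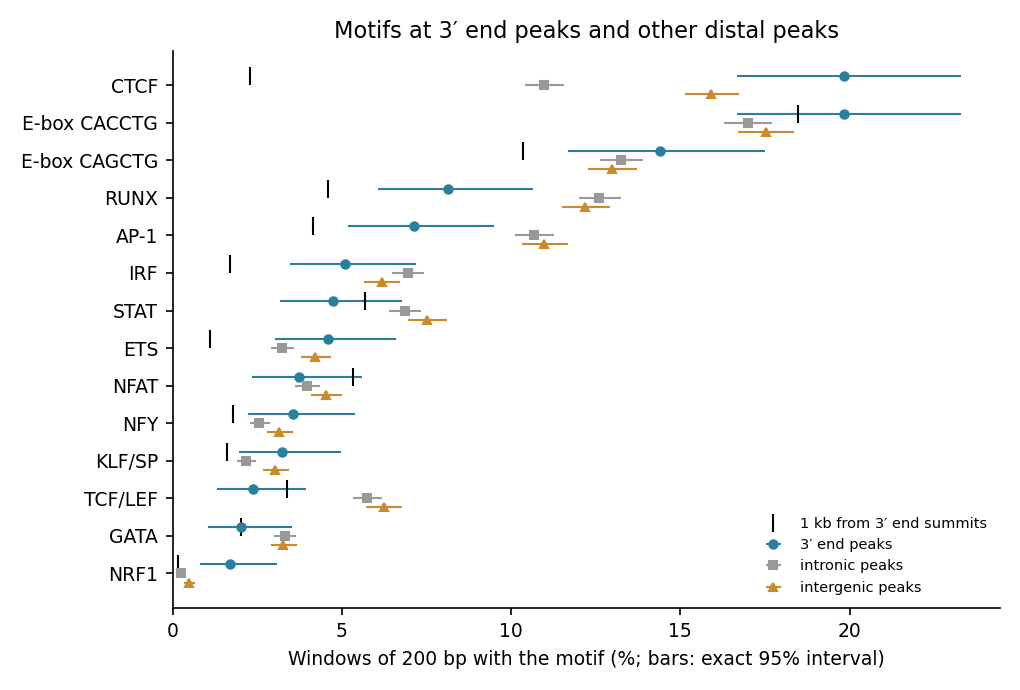
Share of 200 bp windows with each motif (x axis, %) at the 590 peaks at 3′ ends, at other intronic and at other intergenic peaks, with exact 95% intervals, and in the windows 1 kb from the 3′ end summits (black ticks). The CTCF point for 3′ end peaks, at 19.8%, lies far to the right of its tick at 2.29%, and the RUNX, AP-1 and TCF/LEF points lie to the left of both other groups.

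Genes of T cell function had a peak at their 3′ end more often than coding genes at large. Across 7 lists of T cell genes, 20 of 133 genes (15.04%, 9.43 to 22.3%) had at least 1, against 2.70% of all 21420 eligible coding genes. Of their 22 members, 17 lay past the end. These genes are also surrounded by more open sites. Their loci, the gene and 20 kb to either side, held a median of 4 peaks more than 1 kb from a TSS, against 0 for all eligible genes. Set against the peaks summed over loci, members were 3.16% of 697 for these genes and 2.501% of 23592 for all. In those sums a peak counts once for each locus that holds it, whereas each member counts once. The lists were chosen with results of these data known, and the members' count is a description.

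The T cell members were weak by signal. Their median was 6.40 (interquartile range 4.62 to 11.1), against 11.9 for all members, and their median −log10 p was 62.3. Of the 4 sets of members by signal, the lowest held 13 of the 22 and the highest held 1. Counting only peaks of at least the median signal of the whole list left 2 of 133 genes (1.504%), against 1.12% of all eligible genes. By −log10 p the 4 sets held 5, 8, 2 and 7, from lowest to highest. The nearest other summit was a median of 2888 bp away, against 6886 bp for all members, and its part in the low signal was not tested.

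**Figure D4:**
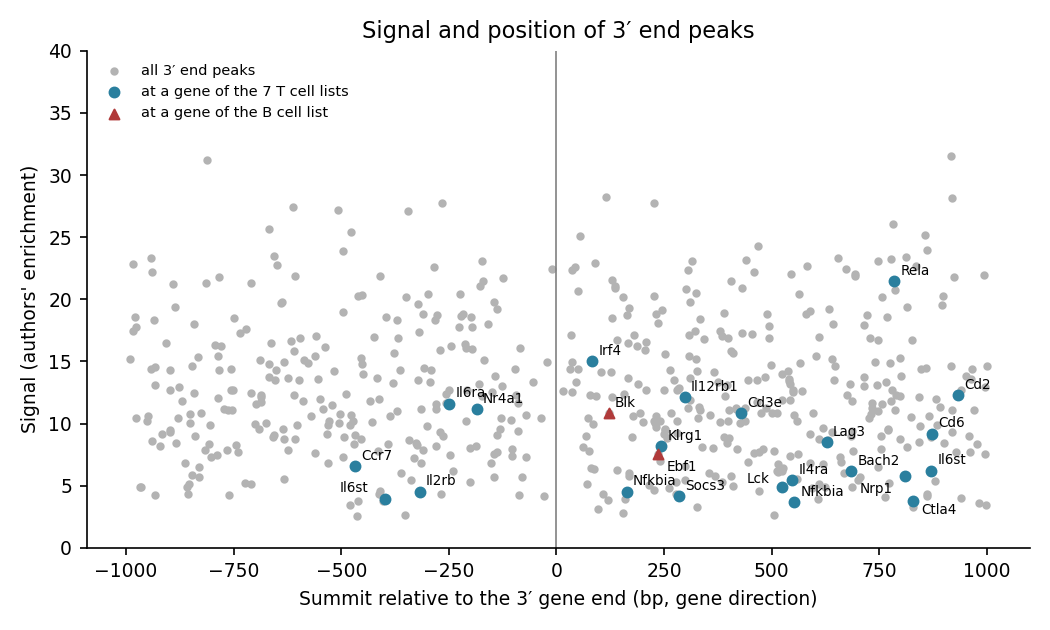
Signal (y axis, authors' enrichment) of each of the 590 peaks against the distance of its summit from the 3′ gene end (x axis, bp in gene direction), with members at genes of the T cell lists (blue) and the B cell list (red) named. Rela at 21.5 is the highest of the named T cell members, and most of the others lie under the median of 11.9 and to the right of the end.

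Among genes of activation and NF-kB signalling, 4 of 19 had a member. Rela, the p65 subunit of NF-kB, had 21.5 at 785 bp past its end, and its promoter peak had 15.3. Irf4, a factor of effector T cell programmes, had 15.02 at 83 bp past its end against 8.77 at its promoter. Nr4a1, a nuclear receptor induced by T cell receptor signals, had 11.1 at 185 bp before its end, in the 3′ UTR. Nfkbia, which encodes the inhibitor that holds NF-kB in the cytoplasm, had 4.53 and 3.65 at 163 and 552 bp past its end. The −log10 p of the first of those, 143, matched that of Irf4, although the signals were 4.53 and 15.02.

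Of the T cell identity genes, 4 of 25 had a member, each past the end. Cd2, an adhesion receptor, had 12.3 at 932 bp with a −log10 p of 365, and Cd3e, a signalling chain of the T cell receptor complex, had 10.8 at 429 bp. Cd6, a receptor of the scavenger family, had 9.19 at 873 bp, and the kinase gene Lck had 4.91 at 523 bp. The promoter peak was above the member at Cd3e (15.4), Cd6 (11.3) and Lck (14.2) and below it at Cd2 (8.95).

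Of the regulatory T cell signature genes, 2 of 22 had a member. Ctla4, the inhibitory receptor of costimulation, had 3.74 at 829 bp past its end, in the interval chr1:60916312-60916829, and 5.47 at its promoter. Nrp1, a semaphorin receptor found on thymus-derived regulatory T cells, had 5.76 at 810 bp past its end and 7.98 at its promoter. Of the effector genes, 2 of 18 had a member. They were Lag3, an inhibitory receptor that binds MHC class II (8.53 at 628 bp past), and Klrg1, a lectin-like receptor of differentiated T cells (8.16 at 243 bp past). Neither Lag3 nor Klrg1 had a promoter peak, and they were the 2 of the 20 genes without one.

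Cytokine and chemokine receptors had a member at 5 of 26 genes. Il12rb1, a chain of the IL-12 and IL-23 receptors, had 12.1 at 298 bp past its end, and Il6ra had 11.6 at 249 bp before its end, in the 3′ UTR. Il6st, the signalling partner of Il6ra, had 6.22 at 871 bp past and 3.95 at 398 bp before its end, and Il4ra had 5.45 at 548 bp past. The β chain gene of the IL-2 receptor, Il2rb, had 4.52 at 318 bp before its end. In the list of JAK, STAT and SOCS genes, Socs3, a feedback inhibitor of cytokine signalling, was the 1 of 15 with a member (4.14 at 285 bp past). Among genes of resting and homing cells, the chemokine receptor gene Ccr7 had 6.59 at 469 bp before its end and Bach2, a repressor of effector programmes, had 6.17 at 685 bp past it, so 2 of 13 had a member.

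Across 5 lists of other cell types, 2 of 61 genes (3.28%, 0.40 to 11.3%) had a member, near the 2.70% of all eligible genes. Both were in the B cell list, whose share was 16.7% (2.09 to 48.4%), no lower than that of the T cell lists. There, 2 of 12 genes had a member, Blk, a Src family kinase (10.9 at 121 bp past), and Ebf1, a transcription factor of the lineage (7.51 at 236 bp past), and both windows held the CTCF core. Of the 12 B cell genes, 4 had a promoter peak. The counts were 0 of 14 myeloid, 0 of 12 erythroid and megakaryocyte, 0 of 11 hepatocyte and 0 of 12 neuron genes. They were also 0 of 19 housekeeping genes, 0 of 13 genes of cohesin and chromatin looping and 0 of 16 of cleavage and polyadenylation, and every gene of those 3 lists had a promoter peak. At the 2.70% of all eligible genes, lists of this size would hold less than 1 gene each, so a count of 0 is no departure from the background. It allows shares of up to 17.6% for housekeeping genes and more for the others.

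**Figure D5:**
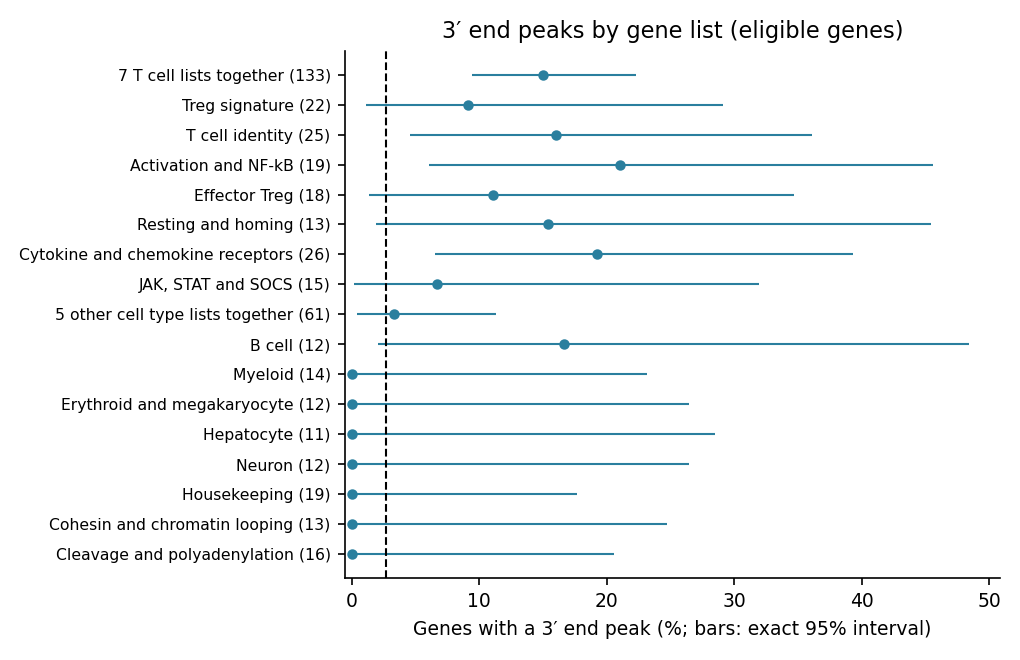
Share of eligible genes with a peak at their 3′ end (x axis, %) for each gene list, with the number of genes in brackets and exact 95% intervals. The dashed line is the 2.70% of all eligible coding genes, and the point for the 7 T cell lists together lies at 15.04%.

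Members next to the limits of the rule had signals from 3.42 to 17.7, and they are too few to compare with the peaks just outside. Just inside the 1 kb limit from the 3′ end were Hoxd3 at 1000 bp with a signal of 14.6, Ctc1 at 998 bp with 3.42 and Rps10 at 996 bp with 12.9. Just outside it were Tmem52b at 1004 bp with 10.9 and Ensa and Stra8, each at 1007 bp, with 12.1 and 15.9. Just inside the limit from a TSS were Cep19 at 1022 bp, Tap1 at 1045 bp and again Hoxd3 at 1064 bp, with 17.7, 11.9 and 14.6. Just outside it were peaks at Nfkbil1, Chchd10 and Bean1, at 972, 970 and 962 bp, with 12.6, 8.495 and 15.3. A further 599 peaks lay near a coding 3′ end but within 1 kb of a TSS, with a median signal of 15.5, and were not counted as members.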

How the data were processed

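The deposited values are peak lists on mm10, and per the deposited file listings both libraries share the alignment from which they came. Signal is the authors' deposited enrichment per peak, with no stated reference, and the deposited −log10 p and −log10 IDR (irreproducible discovery rate) are likewise the authors'. Column order was taken from the narrowPeak format. For the aligner, caller and read shift, names were not given in the sources used here. The lists hold no read counts, so depth is unknown.

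The 68653 lines of the thresholded list were reduced to 34610 intervals. Positions are 1-based and were computed with numpy 2.4.6, pandas 2.3.3 and pysam 0.24.0 against GENCODE M21 and the RefSeq sequence of GRCm38.p6. Shares have exact 95% Clopper-Pearson intervals and densities exact Poisson ones (scipy 1.17.1). An eligible gene has at least 1 base within 1 kb of its 3′ end that lies over 1 kb from every TSS. Motifs were searched by exact letters on both strands. With 1 pooled sample, and since peaks are not replicates, no test was made. The functions were tested on simulated data.

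The members, 15 gene lists and 19 motifs were chosen with earlier results of these data known. Named are the 10 members of highest signal, the 3 highest per sequence class, up to 4 per gene list, those next to the limits, genes with 3 members and the 5 highest with the CTCF core. Other names (the further members of a list, the sixth CTCF sequence and the genes of the printed windows) were chosen after their values were seen. There were 14 alternatives, and 4 more were added after the data were seen.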

Additional observations from a re-analysis of the deposited data

How the results depend on the processing

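Alternatives of the peak list or of the position rule were applied to the number of members, their share of all peaks, the median signal and the shares past the end, with the CTCF core and with a promoter peak. Those of a single measure were applied to that measure. The pseudoreplicated list gave 1144 members (1.94% of its peaks), a median signal of 7.68 and promoter peaks at 76.5% of genes, against 57.2% of the same eligible genes. Peaks of at least the median signal gave 239 members (1.38%), a median of 17.4 and promoter peaks at 48.5%, against 38.9%, where promoter peaks under that signal were dropped too. A −log10 IDR of at least 2 gave 1.52% and a median of 13.5. Counting every summit line gave 944 members (1.38%), a median of 8.79 and a CTCF share of 13.8%. Windows of 500 bp and 2 kb gave 299 (0.864%) and 1123 members (3.24%), by construction. More than 2.5 kb from every TSS left 1.297% of peaks. The ends of every coding transcript gave 890 members (2.57%) and promoter peaks at 75.7% of genes, against 52.1%. Intervals that overlap the end itself numbered 128 (0.370%), with a median signal of 13.4, 50% past the end and a CTCF share of 16.4%. Counting 5′ ends of gene records alone gave promoter peaks at 64.2% of genes, against 48.2% of eligible genes. In alternatives chosen after seeing the data, T cell list genes with a member were 1.504% when peaks under the median signal were dropped and 23.3% with the pseudoreplicated list, against 1.12% and 5.03% of all eligible genes. Leaving out members within 1 kb of a RefSeq transcript start gave 15.04% again, against 2.60%. A floor on signal can only lower the number of members and the T cell share and raise the median signal, by construction. The cause of the other moves was not tested. No paired analysis was possible because the labels name 1 group.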

Other observations

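Several immune genes outside the lists also had a member, named here after their values were seen. Ikzf3, a zinc-finger factor of lymphocytes, had 16.3 at 187 bp past its end, where its promoter peak had 8.17. Cbfb, the partner of RUNX proteins, had 14.1 at 104 bp past its end, and that window held both the RUNX and the CTCF letters. Malt1, a paracaspase of antigen receptor signalling, had 14.3 at 264 bp past its end. Zfp683, a factor of tissue-resident lymphocytes, had 2 members, 9.88 at 480 bp before and 6.36 at 88 bp past its end, and no promoter peak. The muscle factor gene Myod1 had a member of 21.1 at 135 bp past its end and no promoter peak.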
